A study of Mus musculus with 6 samples.

Results

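The mouse mitochondrial genome carries its own tRNA, rRNA and mRNA genes, and their RNA was examined in whole retina after microbead or saline injection. Members were all genes of the deposited count table whose name starts with mt-, which gave 35 of 31169 genes. The GENCODE annotation of GRCm38 lists 37 such genes, of which 22 encode tRNAs, 2 rRNAs and 13 mRNAs, and 2 of the tRNA genes, *mt-Td* and *mt-Tk*, were not analysed here. Both groups were C57BL/6 mice injected into the eye at 1 month of age, with their retina taken 4 weeks later at 2 months. The saline group (3 libraries) received 1 μL of saline, and the microbead group (3 libraries) received 1 μL of polystyrene beads 15 μm across, which obstruct the outflow of aqueous humor and raise intraocular pressure. The volume is that of the sample labels, and the study's methods give a different one. The beads are a model of raised pressure, and the control eyes were injected too. No source used here says whether the 3 libraries of a group came from separate animals, so the spread between them may be in part technical. The study's methods state that both eyes of a mouse were injected, so libraries of a group could share a mouse. The study's figure of the RNA sequencing gives more retinas per group than there are libraries here. RNA was selected by its poly(A) tail before a stranded library was made, and the reads were paired and 100 bases long.

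The mitochondrial genome is a circle that is read on both strands into long RNAs, in which the rRNAs and mRNAs lie end to end with tRNAs between them. RNase P cuts at the 5′ end of each tRNA and ELAC2 at its 3′ end, and these cuts release the tRNA together with the RNA on either side of it. The rRNAs build the mitochondrial ribosome, the mRNAs encode subunits of the respiratory chain and of ATP synthase, and mature tRNAs receive the bases CCA, while rRNAs and most mRNAs receive short A tails. Photoreceptors, the most numerous cells of the retina, are packed with mitochondria.

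The tRNA sequences below are shown because the results on tRNAs turn on these 6 genes. Each is given 5′ to 3′ on its own strand from GENCODE vM21 transcripts of GRCm38, with the anticodon in capitals. A script placed the anticodon as the reverse complement of a codon of the gene's amino acid in a loop of 7 bases closed by a stem, which succeeded for 19 of the 22 tRNA genes.

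mt-Tl1, leucine, chrM:2676-2750, plus strand: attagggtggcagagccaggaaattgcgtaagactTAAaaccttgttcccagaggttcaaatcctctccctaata
mt-Tm, methionine, chrM:3845-3913, plus strand: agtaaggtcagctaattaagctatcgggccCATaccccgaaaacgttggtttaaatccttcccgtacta
mt-Ty, tyrosine, chrM:5260-5326, minus strand: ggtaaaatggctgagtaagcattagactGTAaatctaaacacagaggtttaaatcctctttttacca
mt-Th, histidine, chrM:11546-11612, plus strand: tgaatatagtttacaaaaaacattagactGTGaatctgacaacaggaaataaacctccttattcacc
mt-Te, glutamate, chrM:14071-14139, minus strand: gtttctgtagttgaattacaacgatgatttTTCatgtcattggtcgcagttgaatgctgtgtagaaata
mt-Tp, proline, chrM:15356-15422, minus strand: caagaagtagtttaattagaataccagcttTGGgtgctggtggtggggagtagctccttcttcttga

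Each of these genes is shorter than 1 read of 100 bases. The 22 tRNA genes run from 59 to 75 bases, 14 lie on the plus and 8 on the minus strand, and 18 have another gene within 5 bases on both sides. A read that touches a tRNA can therefore also touch its neighbour. Mature tRNAs end in CCA, whereas the RNA here was selected by its poly(A) tail. Counts on a tRNA gene are therefore not a measure of mature tRNA, and which RNA they come from was not tested. How the counting treated reads on several genes, reads with several positions in the genome, and strand is not given in the sources used here. *mt-Tl1* lies with 0 bases between it and *mt-Rnr2* on its left and *mt-Nd1* on its right. *mt-Tm* ends where *mt-Nd2* begins, and *mt-Te* ends, on the minus strand, where *mt-Nd6* begins. *mt-Tp* lies at the end of the annotated genes, opposite in strand to its neighbour *mt-Tt*.

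The libraries held 13574949 to 46481382 counts, and each saline library was deeper than each microbead library. The sample titles run in a single number series over both groups, but the library names in the sample descriptions follow 1 pattern in the saline and another in the microbead group. Whatever these patterns mark and the injection cannot be told apart. Markers of retinal cells were abundant, with 6 rod genes summing to 57703 to 76453 counts per 1000000 (CPM) in saline and 50602 to 63811 CPM in microbead libraries. The summed ranges of the groups overlapped for the rod, cone, bipolar cell, retinal ganglion cell, Müller glia, pigment epithelium, blood, ocular muscle and cornea lists. Past the threshold of the edgeR fit below (adjusted p-value under 0.05) were *Nrl*, lower among the 6 rod genes, and *Arr3*, higher among the 4 cone genes. So were 0 of the 4 bipolar cell, 5 retinal ganglion cell, 4 Müller glia, 4 pigment epithelium, 3 blood and 2 tested ocular muscle genes. Over all genes tested 12.8% were past it, so these few genes do not show that the cell make-up was alike. Lens markers summed to 0.331 to 241 CPM in saline and to at most 0.308 CPM in microbead libraries, and the highest sum was that of saline replicate 3, where *Cryaa*, a lens crystallin, stood at 210 CPM. The same library held the most pigment epithelium RNA (147 CPM, against 69.5 to 85.1 CPM over the microbead libraries). Cornea markers were highest in saline replicate 2, at 10.1 CPM, and at most 0.289 CPM in microbead libraries. Ocular muscle markers summed to 2.28 to 3.13 CPM and 1.95 to 6.42 CPM. For the mitochondrial genes, values without saline replicate 3 are given where they change a call or differ by over 1.5-fold. The part of these other tissues in the results was not tested. Saline replicate 1 stood apart in retinal markers, with 187 CPM of retinal ganglion cell markers against 453 to 742 CPM in the other 5 libraries, and its Müller glia sum of 2764 CPM was also the lowest.

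The share of counts on the mitochondrial genome was larger in microbead than in saline retina, and its make-up differed by class. The set was chosen by name, but it was selected with this contrast known, so the values are a description without a test. The mRNA genes took 2.95%, 3.02% and 3.19% of all counts in saline and 10.4%, 8.73% and 9.80% in microbead libraries. The tRNA genes took 0.00299%, 0.00362% and 0.00599% in saline and 0.0155%, 0.0115% and 0.0119% in microbead libraries. Both classes were thus higher in each microbead library than in any saline library, by 1.66 for mRNA and 1.63 for tRNA on the log2 scale of the group means. The rRNA genes took 0.234%, 0.281% and 0.378% in saline and 0.239%, 0.161% and 0.155% in microbead libraries. Here the groups overlapped, with a log2 ratio of -0.69. In bulk tissue, fewer cells of a type and less RNA per cell cannot be told apart.

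Within the mitochondrial counts, the rRNA share was the lower one after microbeads. It made up 7.35%, 8.50% and 10.6% of them in saline and 2.24%, 1.81% and 1.55% in microbead libraries, with means of 8.81% ± 1.64 and 1.87% ± 0.348 (SD, n = 3 each). The lowest saline library was therefore well above the highest microbead library. The tRNA genes made up 0.0940%, 0.110% and 0.168% in saline and 0.146%, 0.129% and 0.120% in microbead libraries. These overlapped, so that the tRNA share of mitochondrial counts was not separated between the groups, and the mean difference changed its sign without saline replicate 1 (-0.00718 percentage points, against 0.00772 with all libraries). The mRNA genes made up 92.6%, 91.4% and 89.2% in saline and 97.6%, 98.1% and 98.3% in microbead libraries.

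**Figure D1:**
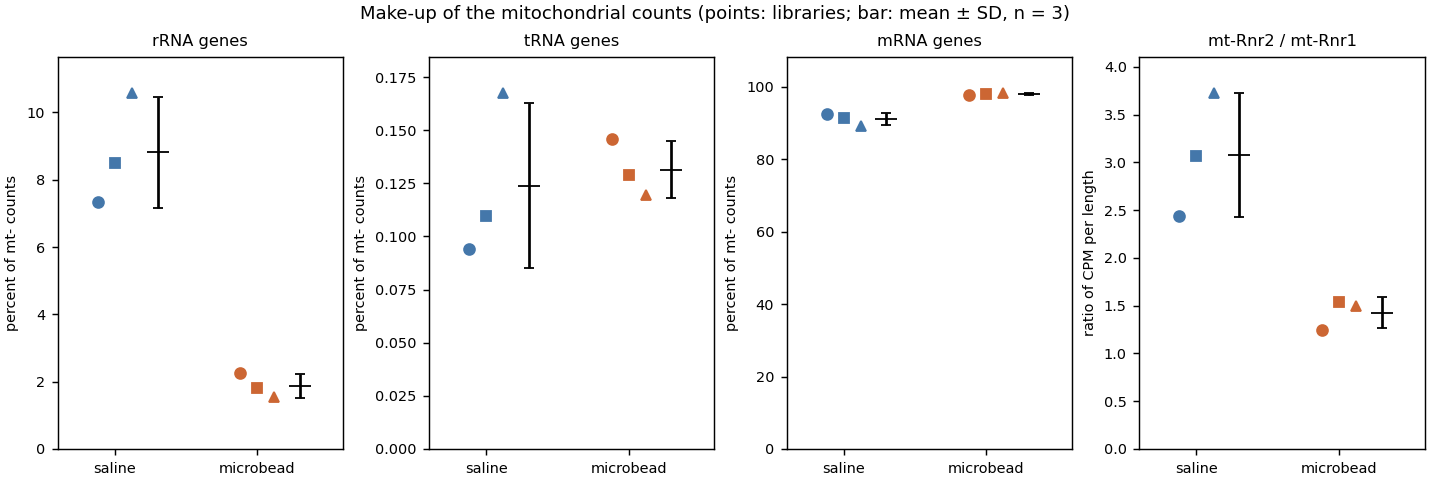
Share of the mitochondrial counts on rRNA, tRNA and mRNA genes (percent) and the ratio of mt-Rnr2 to mt-Rnr1 per length, with 1 point per library and the mean ± SD (n = 3) beside the points. The rRNA share lies between 7.35% and 10.6% in saline and between 1.55% and 2.24% in microbead libraries, while the tRNA shares overlap.

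Of the 35 genes, 27 passed the filter on low counts and were fitted with edgeR among 17707 genes, of which 12.8% were past the threshold of an adjusted p-value under 0.05, 6.46% higher and 6.31% lower in microbead retina. Among the mitochondrial genes, 4 of the 12 tRNA genes were higher and 0 lower, 0 of the 2 rRNA genes were higher and 1 lower, and 7 of the 13 mRNA genes were higher and 6 lower. Of the 4 higher tRNA genes, *mt-Th* passed the filter through the microbead libraries alone. The CPM of the groups did not overlap for 6 of the 12 tRNA, 1 of the 2 rRNA and 13 of the 13 mRNA genes fitted, and for 37.8% of all genes tested. The median log2 fold change of microbead over saline was 1.30 for tRNA, -0.37 for rRNA and 1.01 for mRNA genes, beside -0.03 for all genes tested. Nothing is read from these counts, because the set was chosen on the same contrast, and the filter kept only tRNA genes with enough counts in at least 3 libraries. Over all genes tested, the number past the threshold fell from 2261 to 46 without microbead replicate 3. A call lost in that fit is therefore not particular to its gene.

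**Figure D2:**
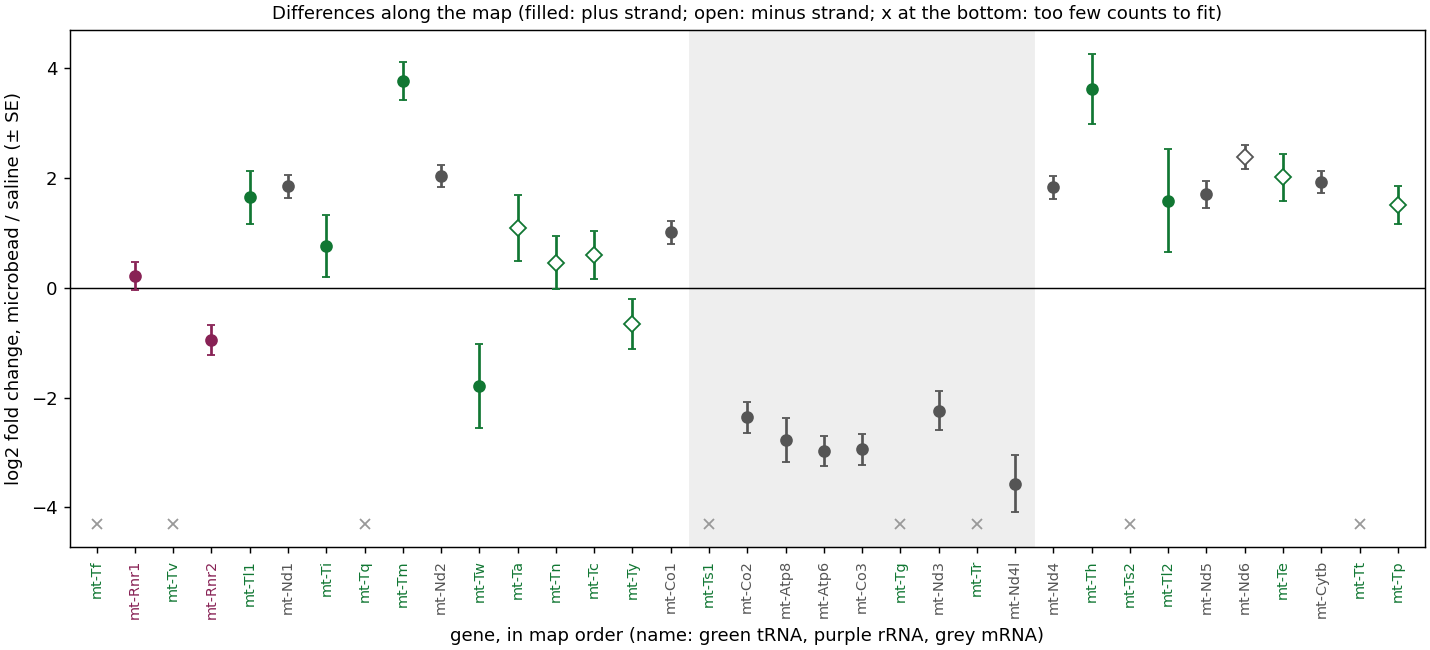
Log2 fold change of microbead over saline retina with its standard error (y axis) for the 27 genes fitted, in map order (x axis), filled for the plus and open for the minus strand, with the genes between mt-Co1 and mt-Nd4 shaded and 8 tRNA genes with too few counts marked by a cross at the bottom. All 6 mRNAs in the shaded stretch lie at or below -2.24 and the 7 other mRNAs at or above 1.01, mt-Tm is the highest value at 3.77, and mt-Rnr2 lies at -0.95.

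*mt-Rnr2*, the rRNA of the large subunit of the mitochondrial ribosome (chrM:1094-2675, plus strand), was the lower of the 2 rRNA genes in microbead retina. Its level per length was 1135, 1428 and 2201 CPM per 1000 bases in saline and 1036, 716 and 708 in microbead libraries. The groups did not overlap, although saline replicate 1 and microbead replicate 1 were close. Its log2 fold change was -0.95 (SE 0.27), and it was past the threshold. The call depended on the fit. With 1 library left out it was past the threshold only without saline replicate 1, and the values ran from -1.16 without microbead replicate 1 to -0.65 without saline replicate 3. Saline replicate 3 held both the most *mt-Rnr2* and the most lens and pigment epithelium RNA of the saline libraries, and the part of these tissues was not tested.

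*mt-Rnr1*, the rRNA of the small subunit (chrM:70-1024, plus strand), is read from the same strand just before *mt-Rnr2*, with only *mt-Tv* between them. Its level per length was 466, 465 and 590 CPM per 1000 bases in saline and 832, 466 and 473 in microbead libraries. Apart from microbead replicate 1, the microbead libraries lay within the saline range. It had a log2 fold change of 0.22 (SE 0.25), which was -0.12 without microbead replicate 1. The 2 rRNAs therefore did not keep their proportion. *mt-Rnr2* stood at 2.44, 3.07 and 3.73 times *mt-Rnr1* per length in saline and at 1.24, 1.54 and 1.50 times in microbead libraries, without overlap.

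*mt-Nd1*, a subunit of complex I, is the first mRNA after the rRNAs, and like *mt-Rnr1* it shares 0% of its 31-base stretches with annotated nuclear transcripts. It stood at 3923, 4087 and 4950 CPM per 1000 bases in saline and at 18064, 12689 and 15876 in microbead libraries, a log2 fold change of 1.85 (SE 0.21). Per length, *mt-Rnr1* was 11.9%, 11.4% and 11.9% of *mt-Nd1* in saline and 4.61%, 3.67% and 2.98% in microbead libraries. *mt-Rnr2* was 28.9%, 34.9% and 44.5% of *mt-Nd1* in saline and 5.73%, 5.65% and 4.46% in microbead libraries. Neither ratio overlapped between the groups. Both rRNAs were thus lower beside the next mRNA of the same strand, also where the level of *mt-Rnr1* itself overlapped. All of these levels are those of RNA that passed the selection for poly(A) tails.

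**Figure D3:**
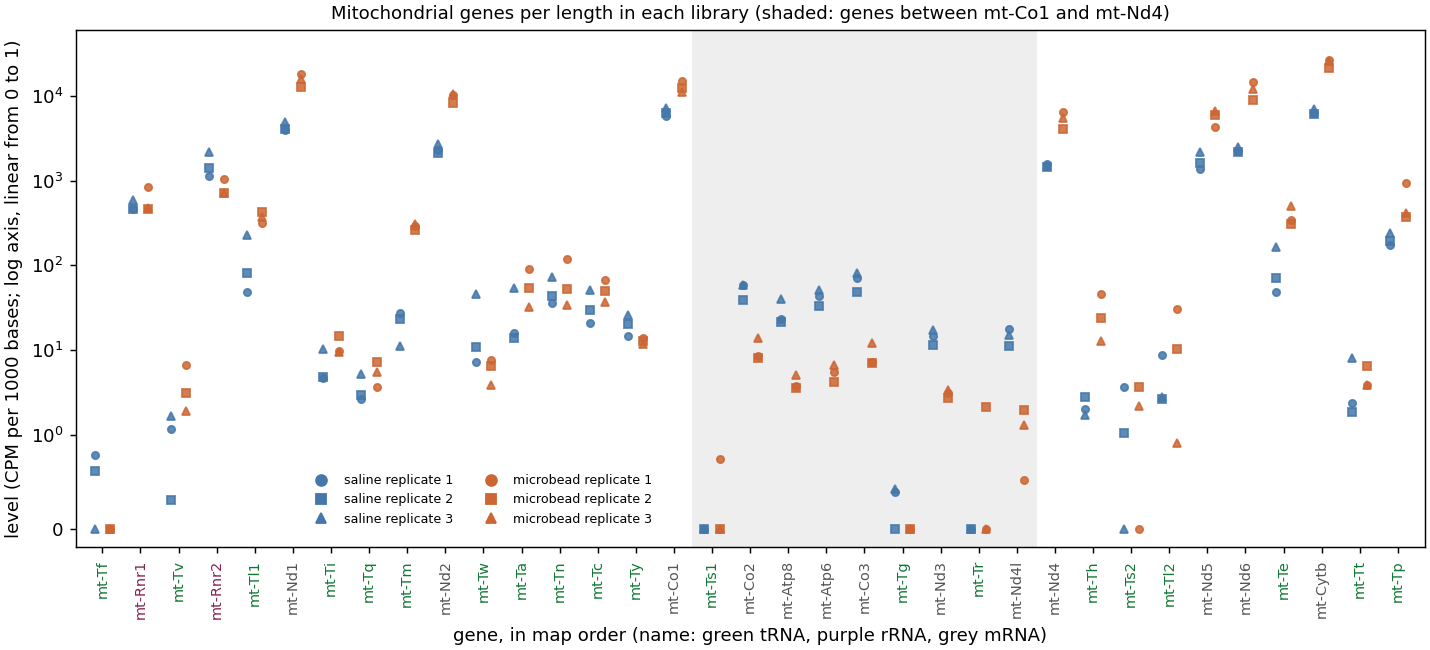
Level per length of the 35 genes in each library (y axis, CPM per 1000 bases, a log axis that is linear from 0 to 1), in map order (x axis), with blue symbols for saline and orange for microbead libraries. mt-Rnr2 is above mt-Rnr1 in each library, the shaded genes between mt-Co1 and mt-Nd4 lie at or below 80.2 CPM per 1000 bases throughout, and the 7 mRNAs outside that stretch lie at or above 1379.

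Of the tRNA genes, *mt-Tm*, the methionine tRNA, differed most. It had 72, 78 and 27 counts in the deeper saline libraries and 393, 247 and 323 in the microbead libraries. On the CPM scale the saline libraries lay between 0.769 and 1.91 and the microbead libraries between 17.8 and 21.0, and saline replicate 3 was the lowest. The log2 fold change was 3.77 (SE 0.34), and it ran from 3.48 to 4.01 with each library left out, past the threshold each time. *mt-Nd2*, the complex I subunit that begins where *mt-Tm* ends, differed less. Its level per length was 2276, 2111 and 2703 CPM per 1000 bases in saline and 10235, 8369 and 10494 in microbead libraries, a log2 fold change of 2.04 (SE 0.20). Per length, *mt-Tm* was 1.22%, 1.11% and 0.413% of *mt-Nd2* in saline and 2.86%, 3.09% and 2.89% in microbead libraries. Counts on the tRNA gene were thus higher also beside its neighbour.

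*mt-Tl1*, the leucine tRNA between *mt-Rnr2* and *mt-Nd1*, had 136, 293 and 594 counts in saline and 462, 442 and 426 in microbead libraries. Scaled to depth it stood at 3.61, 6.07 and 16.9 CPM in saline and at 23.7, 31.9 and 27.6 CPM in microbead libraries. The groups did not overlap, with saline replicate 3 the closest to the microbead libraries. The log2 fold change was 1.65 (SE 0.48), not past the threshold, and 2.51 without saline replicate 3 and 1.27 without saline replicate 1, past the threshold in both cases. It was also past the threshold in 7 of the 8 other fits with all libraries. Its 2 neighbours gave different pictures. Per length, *mt-Tl1* was 4.24%, 5.67% and 10.3% of *mt-Rnr2* in saline and 30.6%, 59.3% and 52.0% in microbead libraries, whereas it was 1.23%, 1.98% and 4.56% of *mt-Nd1* in saline and 1.75%, 3.35% and 2.32% in microbead libraries. Counts on the tRNA gene were separated between the groups beside the rRNA on its left, and they overlapped beside the mRNA on its right.

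*mt-Te*, the glutamate tRNA, lies on the minus strand before *mt-Nd6*, the only mRNA gene of that strand. It had 127, 238 and 400 counts in saline and 459, 293 and 533 in microbead libraries, or 3.37, 4.93 and 11.4 CPM and 23.6, 21.1 and 34.6 CPM. Each microbead library was above each saline library, and saline replicate 3 was again the highest of its group. The log2 fold change was 2.01 (SE 0.42), 2.66 without saline replicate 3, and it was past the threshold with all libraries and without saline replicate 1 or 3, but not without saline replicate 2 or any of the 3 microbead replicates. *mt-Nd6*, a complex I subunit, stood at 2215, 2172 and 2477 CPM per 1000 bases in saline and at 14542, 9007 and 12241 in microbead libraries, a log2 fold change of 2.38 (SE 0.22). Per length, *mt-Te* was 2.20%, 3.29% and 6.67% of *mt-Nd6* in saline and 2.35%, 3.40% and 4.09% in microbead libraries. These overlapped, so the level of the tRNA gene beside its neighbour was not separated between the groups.

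**Figure D4:**
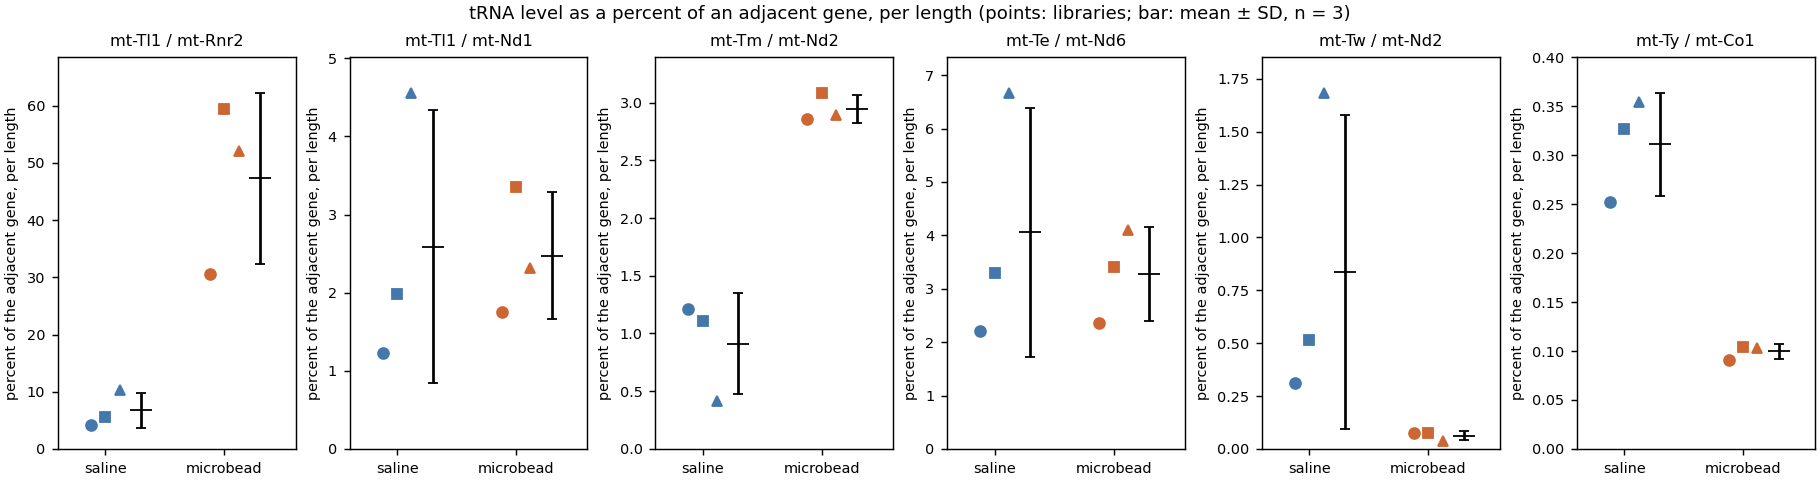
Counts on a tRNA gene as a percent of those on an adjacent gene, per length (y axes, each from 0), for 6 pairs of genes, with 1 point per library and the mean ± SD (n = 3). The ratio of mt-Tm to mt-Nd2 is at most 1.22% in saline and at least 2.86% in microbead libraries, those of mt-Tl1 to mt-Nd1 and of mt-Te to mt-Nd6 overlap, and those of mt-Tw to mt-Nd2 and mt-Ty to mt-Co1 are lower in each microbead library.

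*mt-Th*, the histidine tRNA that follows *mt-Nd4*, was rare. It had 5, 9 and 4 counts in saline and 60, 22 and 13 in microbead libraries, or 0.114 to 0.186 CPM and 0.844 to 3.08 CPM, without overlap. Its level reached the filter in 0 saline and 3 microbead libraries, so that it was fitted only through the group in which it was high. The fitted log2 fold change was 3.62 (SE 0.64), 3.02 without microbead replicate 1, and not past the threshold without saline replicate 2 or microbead replicate 3. *mt-Nd4*, a complex I subunit, stood at 1575, 1445 and 1476 CPM per 1000 bases in saline and at 6402, 4110 and 5471 in microbead libraries, a log2 fold change of 1.83 (SE 0.21). Per length, *mt-Th* was 0.126%, 0.193% and 0.115% of *mt-Nd4* in saline and 0.719%, 0.576% and 0.230% in microbead libraries. The ratio did not overlap, but its saline values rest on fewer than 10 counts.

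*mt-Tp*, the proline tRNA and the last minus-strand gene of the map, was the most counted tRNA gene in saline replicates 1 and 2 and in microbead replicate 1. It had 434, 629 and 560 counts in saline and 1228, 342 and 423 in microbead libraries, or 172, 194 and 238 CPM per 1000 bases and 942, 368 and 410 CPM per 1000 bases. Microbead replicate 1 stood well above the other microbead libraries. With all libraries the log2 fold change was 1.51 (SE 0.35), and without that library it was 0.94 and not past the threshold, nor was it past the threshold without saline replicate 2 or microbead replicate 3. *mt-Cytb*, the complex III subunit nearest to it among the mRNAs, lies on the other strand. It stood at 6262, 6220 and 6983 CPM per 1000 bases in saline and at 26494, 21297 and 26220 in microbead libraries, a log2 fold change of 1.93 (SE 0.20). Per length, *mt-Tp* was 2.74%, 3.13% and 3.41% of *mt-Cytb* in saline and 3.56%, 1.73% and 1.56% in microbead libraries, which overlapped.

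A cluster of minus-strand tRNA genes lies between *mt-Nd2* and *mt-Co1*, and none of its 4 members was past the threshold. *mt-Ta*, the alanine tRNA, had 41, 46 and 131 counts in saline and 122, 52 and 34 in microbead libraries. Its log2 fold change was 1.09 (SE 0.60), and 2.00 and past the threshold without saline replicate 3. *mt-Tn*, the asparagine tRNA, had 96, 148 and 179 counts in saline and 166, 51 and 37 in microbead libraries, with a log2 fold change of 0.46 (SE 0.49) that was -0.24 without microbead replicate 1. *mt-Tc*, the cysteine tRNA, had 52, 95 and 118 counts in saline and 86, 46 and 37 in microbead libraries, and its log2 fold change was 0.60 (SE 0.43). In all 3 of these genes the groups overlapped on the CPM scale, and saline replicate 3 was the highest saline library.

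*mt-Ty*, the tyrosine tRNA at the end of this cluster, went the other way from most tRNA genes. It had 37, 66 and 60 counts in saline and 18, 12 and 12 in microbead libraries, or 0.982 to 1.71 CPM and 0.779 to 0.925 CPM. The groups did not overlap, yet the log2 fold change of -0.65 (SE 0.45) was not past the threshold. *mt-Co1*, a subunit of cytochrome c oxidase that begins 1 base further on the opposite strand, stood at 5806, 6252 and 7201 CPM per 1000 bases in saline and at 15178, 12392 and 11224 in microbead libraries, a log2 fold change of 1.01 (SE 0.20) that was not past the threshold without saline replicate 2 or any of the 3 microbead replicates. Per length, *mt-Ty* was 0.252%, 0.326% and 0.354% of *mt-Co1* in saline and 0.0910%, 0.104% and 0.104% in microbead libraries, without overlap.

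*mt-Tw*, the tryptophan tRNA on the plus strand just after *mt-Nd2*, was the other tRNA gene with a fold change below 0. It and *mt-Tl2* were named after their values were seen, having fewer than 10 counts in some libraries. *mt-Tw* had 18, 35 and 107 counts in saline and 10, 6 and 4 in microbead libraries, with a fitted log2 fold change of -1.79 (SE 0.77) that was -0.57 without saline replicate 3. Its CPM overlapped between the groups, although per length it was 0.313%, 0.513% and 1.68% of *mt-Nd2* in saline and 0.0750%, 0.0772% and 0.0369% in microbead libraries. *mt-Tm* and *mt-Tw*, at the left and right ends of *mt-Nd2*, thus differed in opposite directions beside the same mRNA.

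The remaining fitted tRNA genes had few counts. *mt-Ti*, the isoleucine tRNA after *mt-Nd1*, had 12, 16 and 25 counts in saline and 13, 14 and 10 in microbead libraries, with a log2 fold change of 0.77 (SE 0.56). Its level reached the filter in 1 saline and 3 microbead libraries, so it was kept through the microbead group. *mt-Tl2*, a leucine tRNA that ends where *mt-Nd5* begins, had 23, 9 and 7 counts in saline and 42, 10 and 1 in microbead libraries. Its log2 fold change was 1.59 (SE 0.94), and 0.22 without microbead replicate 1. *mt-Tl1*, *mt-Tm*, *mt-Te*, *mt-Tl2* and *mt-Tg* each end where an mRNA of the same strand begins. Of these, *mt-Tl1*, *mt-Tm* and *mt-Te* had at least 27 counts in every library, whereas *mt-Tg* before *mt-Nd3* had at most 1. Only *mt-Tg* among them lies between *mt-Co1* and *mt-Nd4*, where the mRNA genes were low too. The mRNA genes of that stretch had 3 to 2206 counts in any library, and those outside it at least 43328. The low count of *mt-Tg* can therefore not be read as particular to that tRNA gene.

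The other 8 tRNA genes of the table did not pass the filter and had at most 19 counts in any library. These were *mt-Tf*, *mt-Tv*, *mt-Tq*, *mt-Ts1*, *mt-Tg*, *mt-Tr*, *mt-Ts2* and *mt-Tt*. *mt-Tf*, the phenylalanine tRNA before *mt-Rnr1*, had 2, 2 and 0 counts in saline and 0 in each microbead library. *mt-Tv*, the valine tRNA between the rRNAs, had 3, 1 and 4 counts in saline and 9, 3 and 2 in microbead libraries, or 0.0796, 0.0207 and 0.114 CPM and 0.463, 0.216 and 0.130 CPM, which did not overlap, although *mt-Rnr1* and *mt-Rnr2* on its sides each had at least 6164. A count of 0 allows up to 3 counts, which is 0.0621 to 0.0855 CPM in saline and 0.154 to 0.216 CPM in microbead libraries, a limit that covers counting error only. With so few counts, these 8 genes were not fitted and no difference was tested.

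By strand, the 12 plus-strand tRNA genes of the table summed to 7.59, 9.36 and 22.5 CPM in saline and to 51.1, 54.5 and 50.9 CPM in microbead libraries. The 8 minus-strand genes summed to 21.1, 25.5 and 41.6 CPM in saline and to 107, 57.9 and 70.2 CPM in microbead libraries. The minus-strand sum was the larger in each of the 6 libraries, and saline replicate 3 was the highest saline library on both strands. Each strand was above the saline range in each microbead library. Strand here is that of the annotation. How the counting treated strand is not known, so RNA of the opposite strand may be among these counts. *mt-Nd6* of the minus strand was 161%, 133% and 113% of *mt-Nd5* of the plus strand per length in saline and 336%, 153% and 183% in microbead libraries, which overlapped. *mt-Nd5*, a complex I subunit whose end overlaps that of *mt-Nd6* by 14 bases, stood at 1379, 1627 and 2186 CPM per 1000 bases in saline and at 4327, 5898 and 6678 in microbead libraries. It had a log2 fold change of 1.70 (SE 0.25), not past the threshold without microbead replicate 3.

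The mRNA genes divided by map position. Between *mt-Co1* and *mt-Nd4* lie 11 annotated genes (chrM:6870-10173), with 6 mRNA genes that were all lower in microbead retina. Their log2 fold changes were -2.36 (SE 0.28) for *mt-Co2* and -2.94 (SE 0.28) for *mt-Co3*, subunits of cytochrome c oxidase, -2.76 (SE 0.40) for *mt-Atp8* and -2.97 (SE 0.27) for *mt-Atp6*, subunits of ATP synthase, and -2.24 (SE 0.35) for *mt-Nd3* and -3.57 (SE 0.51) for *mt-Nd4l*, subunits of complex I. Without microbead replicate 3, those of *mt-Atp8*, *mt-Nd3* and *mt-Nd4l* were not past the threshold. Per length, the 6 genes together stood at 47.0, 32.9 and 52.2 CPM per 1000 bases in saline and at 5.74, 5.34 and 8.61 in microbead libraries. The 7 mRNA genes outside the stretch stood at 3342, 3446 and 4041 in saline and at 12604, 10165 and 11838 in microbead libraries. The 3 tRNA genes of the stretch in the table, *mt-Ts1*, *mt-Tg* and *mt-Tr*, had 0 to 2 counts in any library. The stretch as a whole held 0.462%, 0.310% and 0.409% of the mitochondrial counts in saline and 0.0159%, 0.0185% and 0.0255% in microbead libraries.

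The genes of this stretch have annotated copies in the nuclear genome. On chromosome 1 of GRCm38, from 24611535 to 24616197 on the minus strand, 7 unprocessed pseudogenes copy the genes from *mt-Co1* to *mt-Nd4*. Of the 31-base stretches of *mt-Co2*, *mt-Atp6*, *mt-Co3*, *mt-Nd3* and *mt-Nd4l*, 98.1% to 100% occur in annotated nuclear transcripts, as do 63.9% of those of *mt-Co1*, 62.8% of *mt-Nd4* and 7.47% of *mt-Atp8*. These shares are not those of chromosome 1 alone. Of the 31-base stretches of *mt-Co1*, 29.6% occur in *Gm29216* on chromosome 1 and 45.2% in *Gm13340* on chromosome 2. Of those of *mt-Co2*, 47.1% occur in *Gm13341* on chromosome 2 as well. Reads of these mRNAs and of the copies are therefore uncertain in their source. Outside the stretch, annotated nuclear transcripts at other places hold 13.5% of the 31-base stretches of *mt-Nd2*, 16.8% of *mt-Nd5*, 7.36% of *mt-Nd6*, 6.55% of *mt-Cytb* and 0% of *mt-Nd1*. *mt-Rnr1* shares 0%, *mt-Rnr2* 2.71%, and each tRNA gene but *mt-Ty* (10.8%) shares 0%. The ratios of *mt-Th* to *mt-Nd4* and of *mt-Ty* to *mt-Co1* have as their base an mRNA with a large shared part. No genome sequence was used, so copies without an annotated transcript were not searched. The tRNA genes of the stretch and most of *mt-Atp8* would fall in the gaps between the 7 pseudogenes, which hold none of these transcripts. Their low shares therefore do not show that they lack a nuclear copy.

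Of the 7 copies, 5 were lower past the threshold, beside 6.31% lower over all genes tested. Among the 5 was *Gm28437*, the copy of *mt-Co3*, with 1528, 1505 and 1769 counts in saline and 106, 56 and 60 in microbead libraries. *Gm10222*, the copy of *mt-Nd4l*, had 118, 106 and 115 counts in saline and 28, 18 and 25 in microbead libraries, a log2 fold change of -0.98 (SE 0.37) that was not past the threshold. *Gm28438*, the copy of *mt-Nd3*, was higher, with 1617, 1237 and 1484 counts in saline and 6456, 2958 and 1148 in microbead libraries (log2 fold change 2.48, SE 0.46). Of 5 ratios of a mitochondrial gene to its copy, 4 did not overlap and were lower in microbead libraries, those of *mt-Nd4l*, *mt-Nd3*, *mt-Atp6* and *mt-Co2*. The ratio of *mt-Co3* to its copy overlapped between the groups, at 1.38, 1.23 and 1.25 in saline and 1.04, 1.36 and 2.40 in microbead libraries. That of *mt-Atp6* to *Gm10925* stood at 1.14 to 1.19 in saline and 0.371, 0.470 and 0.469 in microbead libraries.

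Nuclear genes that make and finish mitochondrial RNA were followed as a separate list of the same pathway, of which 83 genes were tested. Of these, 14 were higher, 1 was lower and 68 were not past the threshold, beside 6.46% higher and 6.31% lower over all genes tested. The median log2 fold change of the list was 0.17. With a library left out, the number higher was 1 without microbead replicate 3 and 2 without saline replicate 2. It was 4 and 5 without microbead replicates 1 and 2. *Lactb2*, among the higher genes with all libraries, was past the threshold in 0 of the 6 fits with a library left out, so also not without saline replicate 3. Over all genes tested, the number past the threshold also fell, from 2261 to 46 without microbead replicate 3. The drop is therefore not particular to this list. None of these genes shares a 31-base stretch with a mitochondrial gene.

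Of the 12 genes of transcription and of the nucleoid, 5 were higher and 0 lower. *Ssbp1*, which binds single-stranded mitochondrial DNA, stood at 22.7, 19.2 and 15.9 CPM in saline and at 100, 58.6 and 53.8 CPM in microbead libraries. Its log2 fold change was 1.88 (SE 0.27, adjusted p = 0.00938 from edgeR), and it was past the threshold with each library left out. *Mterf1a*, a factor named for ending transcription after the rRNA genes, stood at 3.53, 4.29 and 2.65 CPM in saline and at 12.5, 8.37 and 9.02 CPM in microbead libraries (log2 fold change 1.51, SE 0.30, adjusted p = 0.0181 from edgeR). Leaving out saline replicate 2 or microbead replicate 1 or 3 put it outside the threshold. *Polrmt*, the mitochondrial RNA polymerase, overlapped between the groups.

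Of the 22 genes of RNA processing and decay, 5 were higher and 0 lower. *Pnpt1*, the polynucleotide phosphorylase of mitochondria, stood at 24.7, 18.5 and 11.1 CPM in saline and at 49.2, 37.9 and 37.0 CPM in microbead libraries (log2 fold change 1.19, SE 0.28, adjusted p = 0.0285 from edgeR), and was past the threshold in 2 of the 6 fits with a library left out. *Slirp*, which stabilises mitochondrial mRNA together with LRPPRC, stood at 17.3, 12.9 and 15.2 CPM in saline and at 33.8, 24.2 and 21.6 CPM in microbead libraries. It had a log2 fold change of 0.81 (SE 0.23, adjusted p = 0.0459 from edgeR) and was past the threshold in 1 of these 6 fits. *Elac2*, which cuts the 3′ ends of tRNAs, and *Trmt10c*, a subunit of mitochondrial RNase P, overlapped between the groups, with log2 fold changes of 0.27 (SE 0.18) and 0.35 (SE 0.25).

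Of the 10 genes of rRNA modification, 0 were past the threshold in either direction, and their median log2 fold change was -0.07. Of the 20 genes of tRNA modification and CCA addition, 4 were higher and 0 lower. *Mettl8*, which methylates mitochondrial tRNAs, stood at 9.66, 10.5 and 8.18 CPM in saline and at 25.8, 18.5 and 23.4 CPM in microbead libraries (log2 fold change 1.26, SE 0.22, adjusted p = 0.0143 from edgeR), not past the threshold without microbead replicate 3. *Trmt1*, another tRNA methyltransferase, stood at 43.4, 36.2 and 25.7 CPM in saline and at 75.9, 75.3 and 91.0 CPM in microbead libraries. It had a log2 fold change of 1.20 (SE 0.22, adjusted p = 0.0149 from edgeR), not past the threshold without saline replicate 2 or microbead replicate 3. *Trnt1*, which adds CCA, had a log2 fold change of 0.23 (SE 0.20).

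Of the 19 mitochondrial aminoacyl-tRNA synthetases, which charge tRNAs with their amino acids, 0 were higher and 1 was lower. This was *Lars2*, which charges the leucine tRNAs *mt-Tl1* and *mt-Tl2*. It stood at 94.5, 86.1 and 145 CPM in saline and at 24.9, 20.3 and 30.1 CPM in microbead libraries, without overlap and with saline replicate 3 the highest. The log2 fold change was -2.11 (SE 0.25, adjusted p = 0.00514 from edgeR), and it was past the threshold with each library left out, with values from -2.27 to -1.85. The other 18 synthetases were not past the threshold, among them those for methionine, glutamate and proline.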

How the data were processed

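Poly(A)-selected RNA of whole mouse retina was compared between 3 saline and 3 microbead libraries, grouped by their sample labels. The authors aligned reads to GRCm38 (GRCm38.p5) with STAR 2.5.3a, using the GENCODE annotation, counted them per gene with featureCounts (1.15.2), and deposited raw counts per gene and library. The deposited table also holds the authors' DESeq2 comparison (version 1.14 per the labels), with mean, fold changes, p-values and a mark of calls, which was not used. In R 4.3.3 with edgeR 4.0.16, low genes were dropped by filterByExpr (minimum count 10, minimum total 15), TMM factors were applied to the sizes, and microbead was set against saline by the two-sided quasi-likelihood F test, with Benjamini-Hochberg adjustment over 17707 genes and a threshold of 0.05. CPM divide a count by the TMM-scaled size in units of 1000000, and levels per length divide them by the length in GENCODE vM21, whereas counting used an earlier release of the same build. Shares with nuclear genes are of 31-base stretches of annotated transcripts. A nuclear gene was called a copy if at least 50% of its own 31-base stretches occur in mitochondrial genes.

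All mt- genes are members. Values per library are given for rRNA genes, for tRNA genes past the threshold or never under 10 counts, and for adjacent mRNA genes, and for the 2 largest changes past the threshold in each list of nuclear factors. Factors whose values are given without being past the threshold were named after their values were seen. Members and lists were chosen with earlier results of these data known. Marker lists held 6 rod, 4 cone, 4 bipolar, 5 ganglion cell, 4 Müller glia, 4 pigment epithelium, 4 lens, 3 blood, 4 ocular muscle and 3 cornea genes. Alternatives were RLE and upper-quartile scaling, sizes without mt- genes, DESeq2 1.42.0, limma-voom (limma 3.58.1), no filter, a minimum of 10 counts per library, shares without the stretch from *mt-Co1* to *mt-Nd4*, a replicate block, a threshold of 0.01, and each library left out. Within groups the chi-square per degree of freedom between libraries was 20.1 or more, so none is a copy of another, which does not show that they came from separate animals. The edgeR fit at its main settings was tested on simulated counts, and no simulation covered the other steps.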

Additional observations from a re-analysis of the deposited data

How the results depend on the processing

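The number of genes past the threshold was 2261, and 3720 without the filter, 3582 with DESeq2, 905 with a replicate block, 87 at a threshold of 0.01 and 46 to 2621 with a library left out (46 when microbead replicate 3 was left out, 293 for saline replicate 2, 748 and 768 for microbead replicates 1 and 2). The replicate numbers are shared by the groups. Deviations from the group means correlated at -0.0191, 0.188 and -0.00351 between libraries with the same number. These values do not settle whether libraries of the groups were paired, since other ways of matching them were not examined. The count of lower mt-rRNA genes was 0 with RLE, upper-quartile scaling, sizes without mt- genes, limma-voom, the block and the threshold of 0.01, and 0 to 1 with a library left out. Higher tRNA genes numbered 1 at the threshold of 0.01 and 1 to 6, higher mRNA genes 5 to 7 and lower mRNA genes 3 to 6 with a library left out. Higher nuclear factors numbered 8 with the block, 1 at the threshold of 0.01 and 1 to 15 with a library left out, and lower ones 3 without the filter, 3 with DESeq2 and 2 with limma-voom. With a library left out, the log2 ratio of the share of all counts ran from 1.49 to 1.62 for all mt- genes, 1.43 to 1.97 for tRNA, -0.91 to -0.48 for rRNA and 1.60 to 1.73 for mRNA, and the difference in the share of mitochondrial counts from -7.67 to -6.05 percentage points for rRNA and from -0.00718 to 0.0297 for tRNA. Of 374 refitted values over the 27 members, 334 kept their direction and side of the threshold, 28 were no longer and 10 were newly past it, and 2 changed sign, *mt-Rnr1* (-0.12 to 0.38 with a library left out) and *mt-Tn* (-0.24 to 0.80), both without microbead replicate 1. The cause was not tested. RLE and sizes without mt- genes put the median of all genes at -0.01 and -0.01. Each fitted mitochondrial gene kept the direction of its fold change with RLE, upper-quartile scaling and sizes without mt- genes. Counting only mt- genes outside the stretch from *mt-Co1* to *mt-Nd4* moved no share of mitochondrial counts by more than the spread between libraries. Depth limits the tRNA genes with fewer than 10 counts.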
